A study of Rattus norvegicus with 16 samples.

Results

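The 150 genes described here were chosen by their measured level in the hypothalamus, as those highest in F3 control rats relative to every other library of the study. Read counts were turned into CPM values (the reads of a gene out of every 1000000 reads assigned to genes in its library, with no other scaling). Of the 32883 genes listed, 10638 had at least 5 CPM in each of the 4 F3 control libraries and were eligible. These were ranked by the lowest F3 control value divided by the highest value among the other 12 libraries plus 0.1, and the first 150 were taken. Members are referred to by that rank, because the deposited files give Ensembl gene IDs with no gene names and the gene table at hand paired 0 of the IDs with a symbol. What the members encode, and whether the tissue carried its defining markers, was therefore not examined.

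The study measured RNA from the hypothalamus, labelled MBH-PoA, of female Wistar rats at 21 days of age, with 4 libraries in each of 4 groups. The F1 control and F1 EDC rats were exposed in utero to vehicle or to an EDC mixture (endocrine disrupting chemicals), and the F3 control and F3 EDC rats descended from vehicle or EDC lineages and were exposed ancestrally. By the labels, the maternal line received the mixture or vehicle in its food, starting 2 weeks ahead of gestation and ending with lactation. The labels name neither the litters nor the components or dose of the mixture. Replicates are separate samples by their labels, and p-values measure the spread between these samples, whose family relations are not given. In the titles all 8 EDC samples read Control, so groups were taken from the source description.

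As background, the hypothalamus links the brain to the pituitary and holds the neurons that start puberty and shape reproduction, feeding and maternal care. Endocrine disrupting chemicals interfere with the making or action of hormones, and the developing hypothalamus is a known target. When a pregnant female is exposed, her offspring and their germ cells are exposed with her, so F3 along the female line is the generation in which a difference can no longer come from direct contact.

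Gene counts per library ran from 5655354 to 35981898, and reads that mapped to several places took 15.7% to 51.6% of a library. No lane number in the file names is shared by F1 and F3, so in every contrast between the generations a lane effect and a generation effect cannot be told apart.

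The rule asked for a margin, and the margin was narrow. The highest ratio was 1.30 and the median of the members was 1.06. Only 4 members exceeded 1.2 and 39 exceeded 1.1. The 3 members just inside the limit had ratios of 1.02 (rank 148), 1.02 (rank 149) and 1.02 (rank 150), and the 3 genes just outside had the same rounded ratios, from 1.0198 to 1.0187. A further 47 eligible genes outside the list had a ratio over 1. At rank 150 the 4 F3 control values lay between 134 and 138 CPM, and the highest other library, an F1 control, was at 131 CPM. The limit of 150 therefore cut through a continuous series of ratios.

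Expression of the members was lowest in F1, intermediate in F3 EDC and highest in F3 control, so "highest in F3 control" describes a rank and not a level found in that group alone. Summed over the members, replicates 1 to 4 of F3 control held 17366, 18177, 17710 and 17549 CPM. F3 EDC held 15056, 15040, 13515 and 13297 CPM. F1 control held 7591, 8780, 7878 and 7120 CPM, and F1 EDC held 7903, 8652, 10021 and 8977 CPM. The F3 control libraries lay within a narrow range above all others, which the rule required, while F3 EDC lay closer to F3 control than to either F1 group. The members took 1.77% ± 0.0347 of the gene counts in F3 control, 1.42% ± 0.0952 in F3 EDC, 0.784% ± 0.0699 in F1 control and 0.889% ± 0.0879 in F1 EDC (SD, n = 4 each). In bulk tissue, more RNA of a gene per cell and more cells that express it cannot be told apart.

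**Figure D1:**
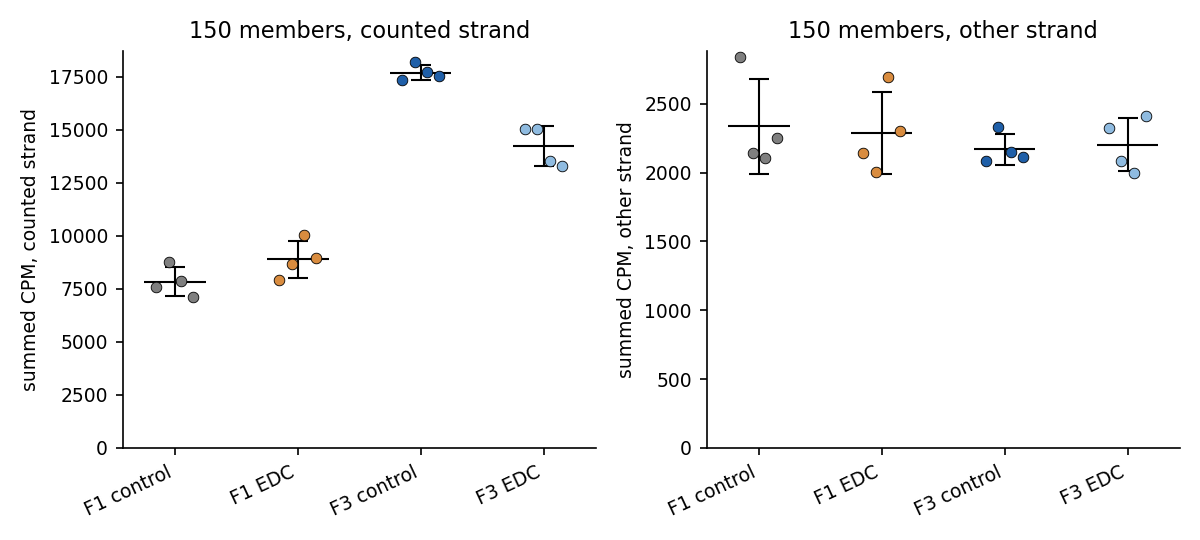
Summed CPM of the 150 members in each library (points), with the group mean and SD (n = 4), for reads on the counted strand (left) and on the other strand (right). On the counted strand F3 control lies at 17366 to 18177 CPM and F3 EDC at 13297 to 15056 CPM, above both F1 groups, whereas the groups overlap on the other strand.

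The order of the groups was the same for most single members. Ranked by group means, F3 EDC came second in 141 of the 150 members, with F1 EDC above F1 control in 85 of these and below it in 56. Among all eligible genes, 12.1% had F3 EDC below F3 control and above both F1 groups. The rule placed F3 control highest in every member but not in every eligible gene, so these shares are not alike. The order of the members is a description. In 5 members F1 EDC came second, and in 4 members F1 control did. The library that came closest to F3 control was an F3 EDC library in 134 members, an F1 EDC library in 9 and an F1 control library in 7. Within F3 EDC it was replicate 2 in 59 members, replicate 1 in 58, replicate 4 in 16 and replicate 3 in 1. As a percentage of the F3 control mean, the median member stood at 79.7% in F3 EDC, 50.4% in F1 EDC and 47.0% in F1 control. The spread was narrow in F3 EDC, from 53.7% to 90.8%, and wide in F1 control, from 12.9% to 92.4%, and in F1 EDC, from 8.71% to 87.5%.

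**Figure D2:**
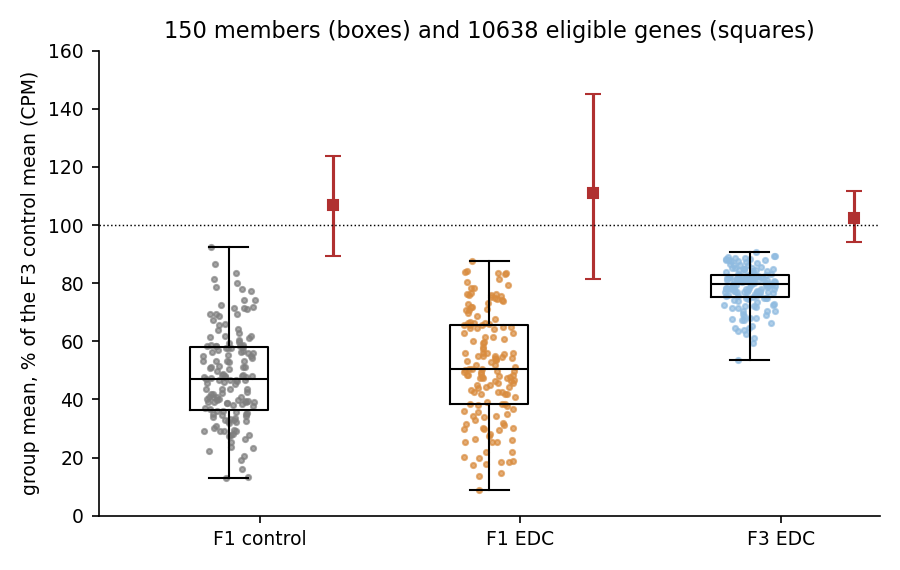
Group mean CPM of each of the 150 members as a percentage of its F3 control mean (points, with boxes from the first to the third quartile, the median, and whiskers to the extremes), beside the median and quartiles of the 10638 eligible genes (red squares). F3 EDC has a median of 79.7%, and both F1 groups lie lower and spread more widely.

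The levels of the members in F3 control ranged widely, with a median above that of the eligible genes. Their F3 control means ran from 6.50 to 613 CPM with a median of 81.4 CPM, against a median of 33.5 CPM over the eligible genes. The rule compares a lowest with a highest value, which counting noise widens in genes with few reads, and its part in this difference was not tested. The highest mean belonged to the member of rank 30, at 640, 652, 593 and 566 CPM in F3 control replicates 1 to 4. In F3 EDC its values were 507, 496, 413 and 445 CPM, and in F1 control they were 146, 159, 140 and 125 CPM. Its F1 EDC values of 180, 178, 300 and 215 CPM lay above every F1 control, with replicate 3 the highest. The lowest mean belonged to the member of rank 49, at 5.97 to 7.19 CPM in F3 control and 4.84 to 5.38 CPM in F3 EDC, and rested on 15 to 180 reads per library.

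ENSRNOG00000013869 had the highest ratio (rank 1). The F3 control values were 7.02, 10.03, 7.12 and 11.3 CPM, and the F3 EDC values 5.25, 5.23, 4.88 and 3.69 CPM. In F1 control it stood at 3.53, 4.78, 5.30 and 5.13 CPM, and in F1 EDC at 3.04, 4.11, 1.52 and 2.001 CPM. The values of F3 EDC and F1 control overlapped. F1 EDC differed from F1 control by -0.92 on the log2 scale (SE 0.27, edgeR adjusted p = 0.00624), although replicate 2 of F1 EDC lay above replicate 1 of F1 control. Between 15 and 222 reads per library lay behind these values, and the F3 control values ranged more widely than those of F3 EDC.

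ENSRNOG00000031778 ranked second on far more reads, 208 to 2471 per library. F3 control held 85.9, 98.8, 82.4 and 81.2 CPM and F3 EDC 62.6, 57.6, 48.8 and 58.7 CPM. F1 control followed at 38.9, 47.8, 44.2 and 36.8 CPM, and F1 EDC was lowest, at 30.7, 29.7, 29.1 and 29.2 CPM. No F3 control value overlapped any other group, and F1 EDC did not overlap F1 control either. The pattern in steps from F1 to F3 EDC to F3 control was the usual form among the members, unlike that of rank 1.

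**Figure D3:**
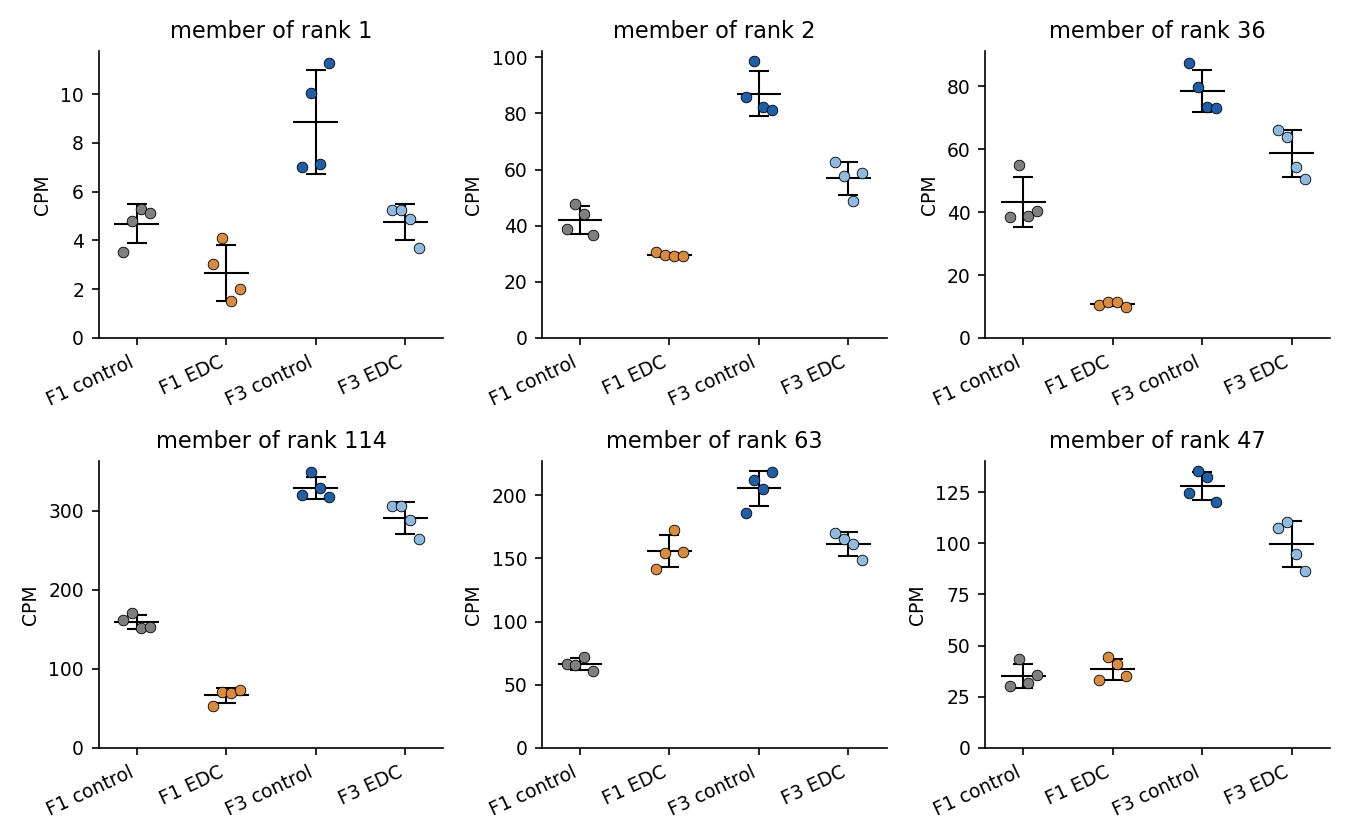
CPM in each library (points) for 6 members, with the group mean and SD (n = 4): the 2 highest ranks, ranks 36 and 114 (lower in F1 EDC than in F1 control), rank 63 (higher in F1 EDC) and rank 47 (similar means in F1). F3 control is highest in each panel, whereas the order of the F1 groups differs between panels.

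Whether the choice carries over to a library it did not use was examined by repeating it without each F3 library in turn. Genes chosen without F3 control replicate 1 exceeded the highest of the other 12 libraries in that replicate in 125 of 150 cases, against 7.15% of the eligible genes. The counts were 136 for replicate 2 (against 7.45%), 130 for replicate 3 (8.97%) and 90 for replicate 4 (8.23%). The count was lowest for replicate 4, the shallowest F3 control at 10987632 gene counts, and next lowest for replicate 1, the deepest at 28768727. The part of depth in these counts was not tested. Leaving out replicate 4 changed the list most of the 16 libraries: 83 of the 150 members were chosen again, against 115 to 135 without another F3 control. The median ratio of the library left out to the highest of the others was 1.06 to 1.17 among the chosen genes and 0.674 to 0.710 among the eligible ones. Without an F3 EDC library, the chosen genes lay below all 4 F3 controls in the missing library in 125 (replicate 1), 131 (replicate 2), 145 (replicate 3) and 140 (replicate 4) of 150 cases. The eligible genes did so in 11.2%, 12.4%, 18.1% and 42.9% of cases. The other libraries entered both the choice and the reading, so these counts describe the stability of the list and carry no test.

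**Figure D4:**
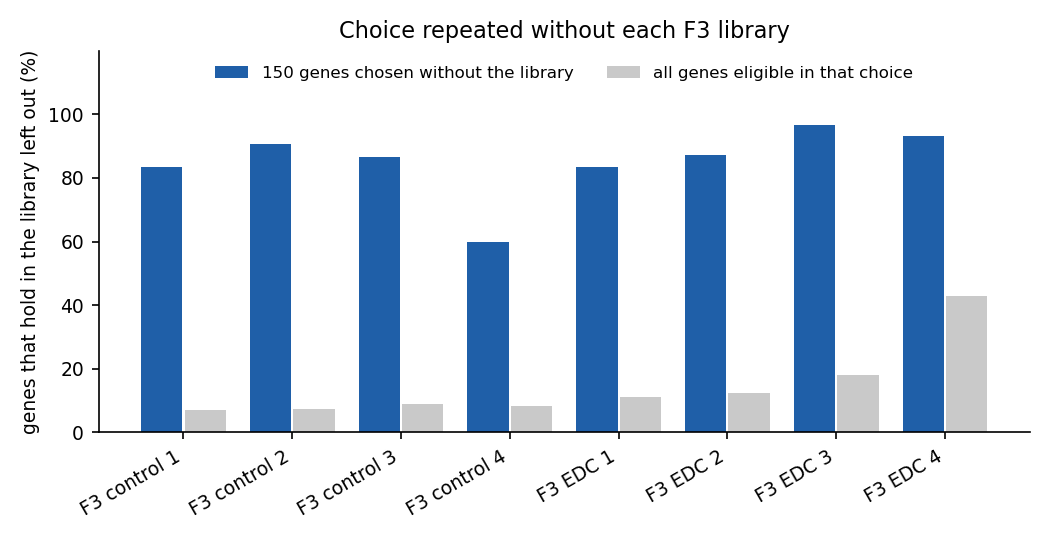
Share of genes (%) that lay above the highest of the other 12 libraries in the F3 control library left out, or below the lowest F3 control in the F3 EDC library left out, for the 150 genes chosen without that library (blue) and all eligible genes (grey). The share of chosen genes is lowest for F3 control replicate 4, at 60%.

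The contrast of F3 EDC with F3 control was the one that the rule used, and its values are a description. In all 150 members the 4 F3 EDC values lay below the 4 F3 controls, where 3.78% of the 15366 genes tested were as cleanly lower in F3 EDC. The median log2 fold change was -0.40 among the members and -0.03 over all genes tested, and the members ran from -0.96 to -0.21. By the quasi-likelihood test of edgeR at an adjusted p of 0.05, 83 members were lower and 0 higher in F3 EDC (among all genes tested, 1.87% were lower and 1.07% higher). The count depended on the fit and on single libraries. DESeq2 called 115 members lower, with 8 members given no adjusted p, and edgeR fitted to only the groups compared called 122. Leaving out replicate 1, 2, 3 or 4 of F3 EDC gave 43, 46, 4 and 51 members. Leaving out replicate 1, 2, 3 or 4 of F3 control gave 40, 13, 49 and 84 members. Without the 8 libraries of any group in which over 40% of reads were multimapping, edgeR called 0 of the members lower, with 148 at an unadjusted p under 0.05 and 3 libraries left in each F3 group. Relative to F1 control, F3 control was higher in 149 members by the same test (14.6% of all genes tested), with a median log2 fold change of 1.17 against -0.02 over all genes. The exception was rank 150.

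The contrast of F3 EDC with F1 control does not compare F3 control, but it is not free of those libraries or of the rule. The fit took a shared estimate of the spread from all 16 libraries. In F3 control the median coefficient of variation (SD over mean) was 6.53% for the members, against 9.76% for the eligible genes. The highest value among the other 12 libraries was also the divisor of the rule. It was an F3 EDC value in 134 members and an F1 control value in 7. The counts below therefore describe the members and are no independent evidence. All 150 members passed the filter on low counts. Of these, 119 (79.3%) were higher in F3 EDC and 0 lower by edgeR's quasi-likelihood test at an adjusted p of 0.05, and 0 were lower at an unadjusted p under 0.05 or by DESeq2. Of the genes tested in all, 9.12% were higher and 7.04% lower. The median log2 fold change was 0.76 among the members and -0.05 over all genes, and 145 members lay above 0. The 5 that did not were within 0.10 of 0 on the log2 scale. In 113 members the 4 F3 EDC values lay above all 4 F1 controls, which was so for 8.31% of all genes tested. The count of 119 stayed between 109 and 125 under every alternative run, including those without a single library (113 to 120). Fitted to only the groups compared, edgeR called 121 members higher (1431 of all 14636 genes tested in that fit). The lane and the generation cannot be told apart in this contrast.

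Ranks 47 and 63 had the smallest p in that comparison. The member of rank 47 reached 107, 110, 94.7 and 86.2 CPM in F3 EDC, against 30.2, 43.3, 31.9 and 35.5 CPM in F1 control. The groups did not overlap, and the difference was 1.51 on the log2 scale (SE 0.09, edgeR adjusted p = 5.91e-10). In F1 EDC it was at 33.2, 44.2, 41.2 and 35.3 CPM. The F1 groups overlapped and differed by 0.01 on the log2 scale (SE 0.10, edgeR adjusted p = 0.955). The member of rank 63 was at 170, 165, 162 and 149 CPM in F3 EDC and at 66.7, 65.9, 72.0 and 60.7 CPM in F1 control. This too was a separation of the groups, by 1.28 on the log2 scale (SE 0.08, edgeR adjusted p = 5.91e-10). The highest ranked gene, ENSRNOG00000013869, differed by 0.04 on the log2 scale (SE 0.26, edgeR adjusted p = 0.933). ENSRNOG00000031778 was higher in F3 EDC by 0.45 (SE 0.10, edgeR adjusted p = 0.00380).

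The contrast of F1 EDC with F1 control compares no F3 group. The fit behind it nevertheless took a shared estimate of the spread from all 16 libraries, F3 included. The 8 F1 libraries also entered the rule, since an F1 EDC library set the divisor in 9 members and an F1 control library in 7. The counts below are therefore a description too. By edgeR's quasi-likelihood test, 47 members (31.3%) were higher and 47 (31.3%) lower in F1 EDC at an adjusted p of 0.05, where 25.4% of all genes tested were higher and 27.0% lower. These shares were near the background of a comparison in which 52.4% of all genes were called. Fitted to only the F1 groups, edgeR called 40 members higher and 40 lower (3567 and 3692 of all 14589 genes tested in that fit). The values did not overlap in 39 members that were higher and 23 that were lower, against 25.7% and 16.6% of all genes tested. The median log2 fold change was 0.02 among the members and -0.004 over all genes. The median absolute change was 0.35, against 0.44 over all genes. The remaining 56 members passed in neither direction.

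**Figure D5:**
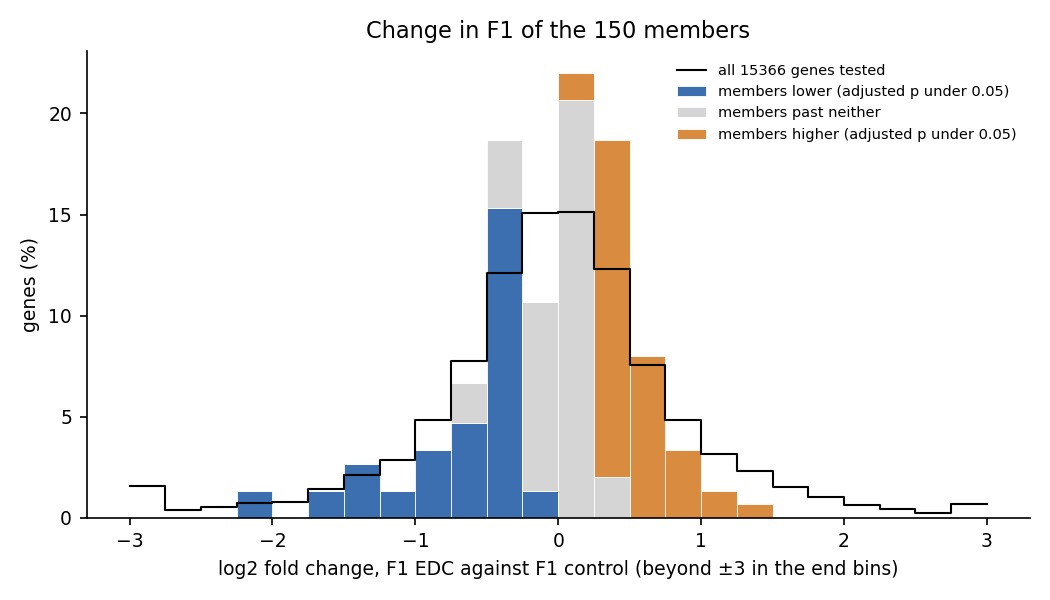
Distribution of log2 fold changes of F1 EDC against F1 control for the 150 members (bars, coloured by their call in edgeR) and for all 15366 genes tested (line), in bins of 0.25. The bars lie on both sides of 0, with 47 members called lower and 47 higher.

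Among members lower in F1 EDC, ENSRNOG00000020161 (rank 36) and ENSRNOG00000002753 (rank 114) had the smallest p. The largest fall was that of rank 3, at -2.22 on the log2 scale (edgeR adjusted p = 9.93e-07). ENSRNOG00000020161 was at 38.6, 54.9, 38.8 and 40.5 CPM in F1 control and at 10.3, 11.3, 11.6 and 9.95 CPM in F1 EDC. The groups did not overlap, and on the log2 scale F1 EDC differed by -2.13 (SE 0.11, edgeR adjusted p = 1.68e-13). The F3 libraries held 87.4, 79.6, 73.5 and 73.1 CPM in control and at 66.0, 63.9, 54.4 and 50.4 CPM in EDC. F1 EDC stood far below the other groups in this gene, and no groups overlapped except F3 EDC and F1 control, where F1 control replicate 2 reached the range of F3 EDC.

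ENSRNOG00000002753 was at 161, 171, 152 and 152 CPM in F1 control and at 52.4, 71.3, 69.9 and 73.0 CPM in F1 EDC. On the log2 scale F1 EDC differed by -1.38 (SE 0.08, edgeR adjusted p = 3.81e-12). F3 control held 320, 348, 329 and 318 CPM and in F3 EDC 305, 306, 288 and 264 CPM. All 4 groups were separate, with the narrowest gap between F3 EDC and F3 control.

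Among members higher in F1 EDC, ranks 63 and 108 had the smallest p, while the largest rise of any called member was 1.32 on the log2 scale. The member of rank 63 was at 141, 155, 173 and 155 CPM in F1 EDC, against 60.7 to 72.0 CPM in F1 control, and the difference was 1.10 on the log2 scale (SE 0.08, edgeR adjusted p = 1.08e-10). F3 control held 186, 212, 205 and 219 CPM, and the F1 EDC values overlapped those of F3 EDC, so in this gene F1 control was the group that stood apart at the low end. The member of rank 108 was at 49.7, 53.2, 57.4 and 52.8 CPM in F1 EDC and at 29.0, 33.6, 25.3 and 23.5 CPM in F1 control, 0.80 higher on the log2 scale (SE 0.09, edgeR adjusted p = 6.77e-08). F1 EDC and F3 EDC overlapped there too, with F3 EDC at 50.7 to 58.6 CPM.

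A further pair of readouts was examined. Reads on the opposite strand of the members, which the rule did not use, numbered 11569 over all libraries, a median of 0.969 reads per member and library, and 16.6% of them came from 1 member. As CPM of all gene reads on that strand, they summed to 2081 to 2333 CPM in F3 control, 1997 to 2414 CPM in F3 EDC, 2109 to 2842 CPM in F1 control and 2006 to 2693 CPM in F1 EDC. All groups overlapped, so the excess in F3 was seen on the counted strand and was not detectable on the other at this depth. The spread between replicates was the second. The median coefficient of variation of the members was 8.32% in F3 EDC, 13.4% in F1 control and 13.7% in F1 EDC, against 10.04%, 13.8% and 10.2% for the eligible genes. The median of the members lay above that of the eligible genes in F1 EDC and below it in F3 EDC, in libraries whose highest value entered the rule.

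Members tended to deviate together between libraries of a group. Over the 12 libraries outside F3 control, the deviations of log2 CPM from the group mean had a mean pairwise Pearson r of 0.342 among members and 0.194 among eligible genes. Genes measured in the same library share its depth and scaling, and the correlation is weak. The highest value among these 12 libraries was also the divisor of the rule. The members had the higher median level in F3 control, 81.4 CPM against 33.5 CPM for the eligible genes. The part of the rule and of the level in the difference between the correlations was not tested. The share of multimapping reads was 43.3%, 33.4%, 16.5% and 30.1% in F3 control replicates 1 to 4, and the summed levels of the members in them lay within 17366 to 18177 CPM. In F3 EDC it was 15.7%, 23.1%, 15.7% and 44.4%, where the members summed to 15056, 15040, 13515 and 13297 CPM. The part of multimapping in these summed levels was not tested. With the multimapping share as a covariate, edgeR called 64 members lower in F3 EDC than in F3 control, against 83 without it. In F3 EDC against F1 control it called 118 higher, against 119. In F1 EDC against F1 control it called 41 higher and 46 lower, against 47 and 47. Scaled with TMM factors, F3 EDC held 14739, 14870, 13104 and 14809 CPM and F3 control 17872 to 20190 CPM, so replicate 4 no longer lay at the low end of F3 EDC.

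Other ways of ranking kept most of the list, except a ratio of means. With TMM scaling 103 of the 150 members were chosen again, with unstranded counts 143, with an offset of 1 in place of 0.1 139, and with a minimum of 1 CPM 148. Ranked by the mean of F3 control over the mean of the other 12 libraries, 60 were.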

How the data were processed

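RNA sequencing libraries of the hypothalamus of 16 female rats were analysed, 4 in each group. Per the labels' protocols, reads were single, of 100 cycles, with 4 samples to a lane. Trimmomatic 0.33, TopHat2 2.1 and the build rn6 stand in the submitters' processing notes. The authors deposited whole-number read counts per Ensembl gene, unnormalized, in the layout that STAR writes (version not given in the sources used here), with 4 summary lines that stayed out of all totals. Column 4 was used, which held at least 52.5 times the gene counts of column 3, the other strand.

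CPM values were computed from these counts. Genes were tested with edgeR 4.0.16 in R 4.3.3: TMM factors, filterByExpr with a count minimum of 10, 4 group means over all libraries, a robust quasi-likelihood F test, two-sided, with Benjamini-Hochberg adjustment over 15366 genes. Standard errors are the absolute log2 fold change over the square root of F. Log2 fold changes carry TMM factors, and CPM values do not unless stated. DESeq2 1.42.0, RLE factors, no filter, unstranded counts, fits of only the compared groups, a block for the replicate number and leaving out each library were the alternatives. The multimapping covariate, the fit without libraries over 40% and the choices without an F3 EDC library were added after seeing the data. The rule was tried on simulated counts in which planted genes rose in F3 control alone, by more than the margins of the members. Those counts held counting noise alone, with no further spread between replicates. The rule was not tried with such spread or at margins as narrow as those of the members. The edgeR and DESeq2 fits were also tried on simulated counts with planted changes.

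The members, lists and rules were chosen with earlier results of these data known. Named members were to be the first by rule, the smallest p in each direction of each comparison, the highest and lowest level and those at the limit. The gene table (47357 genes, assembly GRCr8) holds 0 Ensembl IDs, so names, pathway and marker lists, coordinates and promoter sequences were not used here. IDs are printed for the 2 highest ranks and the 2 members with the smallest p among those lower in F1 EDC. All of these were called lower in F1 EDC, so they do not represent the list, where 47 members were called higher and 47 lower. Other members are given by rank.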

Additional observations from a re-analysis of the deposited data

Results flagged for a closer look

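A sample far from the other 3 of its group was found in 3 of the 56 groups of 4 examined, where chance flags about 1 in 20. F1 EDC replicate 4 held 35981898 gene counts, against 9859178 to 13837319 in the other F1 EDC libraries. F1 control replicate 2 held 54.9 CPM of the member of rank 36, against 38.6 to 40.5 CPM in the others. F1 EDC replicate 1 held 52.4 CPM of the member of rank 114, against 69.9 to 73.0 CPM in the others.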

How the results depend on the processing

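In the contrasts that do not compare F3 control, the counts of members called stayed within 1.5 times under every alternative that could be run. In F1 EDC against F1 control, 36 to 49 were higher and 39 to 49 lower. In F3 EDC against F1 control, 109 to 125 were higher and 0 lower. The fit without libraries over 40% multimapping could not be run for F1 EDC, where every library was over that limit. Multimapping took 41.8% to 51.6% of reads in F1 EDC and 19.9% to 43.2% in F1 control. F3 control exceeded F1 control in 146 to 149 members. All genes called for F3 EDC against F1 control numbered 2483, and 1552 without the libraries over 40% multimapping. For F3 EDC against F3 control, DESeq2 called 775 genes in all against 452 in edgeR, and the fit without those libraries called 0 genes in all and 0 members (smallest edgeR adjusted p = 0.0546, 2240 genes with an unadjusted p under 0.05). Leaving out single libraries of these groups gave 34 to 553 genes in all and 4 to 84 members; the cause was not tested. Without single libraries, 83 to 150 members were chosen again, and 60 by the ratio of means. The change of rank 47 in F1, 0.01 on the log2 scale, lay between -0.067 and 0.073 without single libraries, below 0 without F1 control replicate 1 or 3 or F1 EDC replicate 2 or 3, and never past the threshold. Same-numbered libraries did not deviate together (r between -0.120 and 0.0947 over 16 pairs, none over 0.1). With the replicate block, 46 members were higher and 46 lower in F1 EDC, 118 higher in F3 EDC against F1 control, 67 lower in F3 EDC against F3 control and 147 higher in F3 control against F1 control. Depth limits the members of lowest level, with as few as 15 reads in a library.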
